A study of Mus musculus with 18 samples.

Results

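Matrix metalloproteinases and the proteins that inhibit them were followed in fibroblasts of 3 mouse organs, cultured or transplanted. The set holds 10 genes, taken from a list of names and matched by their Ensembl identifiers to the table of counts, out of 38924 genes in that table. They are 7 metalloproteinase genes (Mmp2, Mmp9, Mmp3, Mmp10, Mmp12, Mmp13 and Mmp14) and 3 genes for tissue inhibitors of metalloproteinases (Timp1, Timp2 and Timp3). All 10 passed the filter on low counts. RNA was sequenced from heart, kidney and tail fibroblasts, in 18 libraries that make 6 groups of 3. HFs, KFs and TFs are heart, kidney and tail fibroblasts recovered after 3 days under the kidney capsule, and HFc, KFc and TFc are the same kinds of cells kept in culture. The comparisons ask which genes change under the kidney capsule and which keep the difference between organs of origin. The graft site is a foreign organ for heart and tail fibroblasts and the organ of origin for kidney fibroblasts.

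Donors of all 6 groups were male Rosa mT/mG mice on a C57BL/6 background, 10 weeks old, whose cells all carry the red TdTomato reporter. The cells were grown for 10 days, and 400000 to 500000 of them per graft were placed under the capsule of a syngeneic C57BL/6J recipient of 10 to 11 weeks, on a piece of gelatin foam. The rest were plated again as the cultured controls. Grafted cells were recovered by sorting for CD45-;TdTomato+ cells, so that transplantation and the path through recipient tissue, digestion and sorting cannot be told apart in any comparison of grafted with cultured cells. In bulk RNA, fewer cells of a type and less RNA per cell cannot be told apart either.

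Metalloproteinases of this family are zinc-dependent enzymes that cut the proteins of the extracellular matrix. They are made as inactive proenzymes, and most are secreted, while Mmp14 sits in the cell membrane. The gelatinases Mmp2 and Mmp9 cut denatured collagen and basement membrane collagen, the stromelysins Mmp3 and Mmp10 cut many matrix proteins and activate other proenzymes, Mmp12 is the metalloelastase first known from macrophages, and Mmp13 is the main interstitial collagenase of rodents. The tissue inhibitors bind the active sites of these enzymes, and Timp2 also takes part, with Mmp14, in the activation of pro-Mmp2. Fibroblasts are a known source of most of these proteins in healing tissue.

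Each library held between 17927838 and 32245168 counts. Levels are given as counts per 1000000 counts of the library (CPM), scaled with TMM factors, and a change as the log2 fold change ± SE of edgeR's quasi-likelihood fit over all 18 libraries, with p-values adjusted over 16577 genes. A gene was called changed by transplantation where its adjusted p was under 0.05 and its log2 fold change above 1 in size, and different between organs on the adjusted p alone. Of 8 fibroblast markers, Col1a1, Col1a2 and Vim were each at 1878 CPM or more in every library, whereas Lum was at 0.0349 to 0.224 CPM and Dcn at 12.4 to 14.1 CPM in KFc. The 8 summed to 12403 to 17106 CPM in cultures and 15462 to 76079 CPM in grafts, with 5, 5 and 4 called higher by transplantation in heart, kidney and tail, while Vim was called lower in heart and tail and Thy1 in heart (24.9 to 44.5 CPM in HFs against 123 to 130 in HFc). The part of these shifts in the members' changes was not tested. KFs replicate 3 stood apart. Its counts are headed Kidney-Fibros, where those of the other libraries open with an organ letter and a replicate number. Its correlation with the other KFs libraries went down to 0.917, and it held Xist at 1492 CPM against 0.404 CPM or less in the other 17 libraries. Its 4 Y-linked genes summed to 0.722 CPM against 175 to 230 CPM. These levels go against the male donors of the paper's methods. Changes of the members, lists and markers in KFs are therefore also given without it. The fibroblast markers of the other KFs libraries summed to 60037 and 49794 CPM, and 5 were again called higher in kidney without it.

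The stromelysin, metalloelastase and collagenase genes lie together on chromosome 9. The stretch from Mmp13 to Mmp10, the outermost members of this set there, spans 237727 bases. It holds 6 annotated genes, in the order Mmp13, Mmp12, Mmp1b, Mmp3, Mmp1a and Mmp10 (GRCm38, GENCODE M21). Genes beyond its ends were not listed, so it need not be the whole cluster. RefSeq promoters, 250 bases before to 50 after a start site, were matched for 8 of the 10 members. They are shown for the 4 members of the cluster because their letters share a pair of short motifs near the start, 5′ to 3′ on the gene's own strand, which is the plus strand for all 4. Capitals mark TGANTCA, the core that AP-1 factors bind, and TATAAA, the core of a TATA box.
Mmp13, chr9:7272264-7272563: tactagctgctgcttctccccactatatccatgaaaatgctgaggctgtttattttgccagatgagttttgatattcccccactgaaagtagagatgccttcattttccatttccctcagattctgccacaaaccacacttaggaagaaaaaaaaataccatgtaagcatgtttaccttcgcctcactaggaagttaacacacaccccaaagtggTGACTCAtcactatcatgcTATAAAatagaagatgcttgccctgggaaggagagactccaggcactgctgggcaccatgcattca
Mmp12, chr9:7347124-7347423: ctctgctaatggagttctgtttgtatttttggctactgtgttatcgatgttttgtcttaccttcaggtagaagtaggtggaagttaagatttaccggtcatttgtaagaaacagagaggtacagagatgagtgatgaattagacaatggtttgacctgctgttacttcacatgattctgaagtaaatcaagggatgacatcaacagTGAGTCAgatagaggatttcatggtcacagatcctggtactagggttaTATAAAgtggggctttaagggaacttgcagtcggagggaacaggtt
Mmp3, chr9:7445572-7445871: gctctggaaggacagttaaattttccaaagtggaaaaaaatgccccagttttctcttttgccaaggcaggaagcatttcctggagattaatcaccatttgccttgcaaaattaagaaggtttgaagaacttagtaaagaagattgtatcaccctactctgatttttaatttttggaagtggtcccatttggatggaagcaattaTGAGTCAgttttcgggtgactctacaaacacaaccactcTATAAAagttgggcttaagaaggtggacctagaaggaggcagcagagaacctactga
Mmp10, chr9:7502092-7502391: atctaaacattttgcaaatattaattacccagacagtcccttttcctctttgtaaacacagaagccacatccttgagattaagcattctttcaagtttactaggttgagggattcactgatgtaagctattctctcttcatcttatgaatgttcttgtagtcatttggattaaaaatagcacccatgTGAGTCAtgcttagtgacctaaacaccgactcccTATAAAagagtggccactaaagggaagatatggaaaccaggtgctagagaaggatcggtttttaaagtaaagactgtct
The coordinates are on GRCm38.p6. The AP-1 core begins 35 bases before the start site in Mmp13, 44 in Mmp12, 46 in Mmp3 and 63 in Mmp10. TATAAA begins 16 bases before the start site in Mmp13, 7 in Mmp3 and 29 in Mmp10, and lies after the listed start site in Mmp12. Mmp12 has a second listed promoter, further upstream, that holds neither motif. The motifs were searched on both strands, TGANTCA being its own reverse complement, and do not overlap each other here. TGANTCA was found in 7.81% of all 32851 promoters of this length, TATAAA in 13.6% and both in 1.54%. Counted per gene, over 27025 genes with any listed promoter, the shares were 8.97%, 15.7% and 1.84%. Of the 8 members with a promoter, 4 held both and the other 4 (Mmp14, Timp1, Timp2 and Timp3) held neither. A match is a description of the letters and not of binding.

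Of the 7 metalloproteinase genes, 5 were called higher after transplantation in heart, 5 in kidney and 6 in tail, while Timp2 and Timp3 were called lower in kidney alone and had log2 fold changes between -0.72 and -0.99 in heart and tail. Between HFs and HFc, 6 of 10 members were called, all higher (Mmp2, Mmp9, Mmp3, Mmp12, Mmp14 and Timp1), where 27.7% of all genes tested were called, 18.3% higher and 9.33% lower. Between KFs and KFc, 8 of 10 were called, with 6 higher (Mmp2, Mmp9, Mmp3, Mmp10, Mmp13 and Timp1) and 2 lower (Timp2 and Timp3), against 22.6% of all genes, 14.7% higher and 7.99% lower. Without KFs replicate 3, 9 were called, Mmp14 being added as higher, against 12.9% of all genes higher and 10.3% lower. Between TFs and TFc, 6 were called, all higher (Mmp2, Mmp9, Mmp3, Mmp10, Mmp12 and Mmp13), against 16.5% of all genes, 11% higher and 5.53% lower. The median log2 fold change of the 10 members was 1.53, 1.37 and 1.43 in heart, kidney and tail fibroblasts, where that of all genes was 0.05, 0.09 and 0. Mmp2, Mmp9 and Mmp3 were called higher in all 3 organs. Mmp10 and Mmp13 rose in kidney and tail, Mmp12 in heart and tail, Timp1 in heart and kidney, and Mmp14 passed both limits in heart alone.

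**Figure D1:**
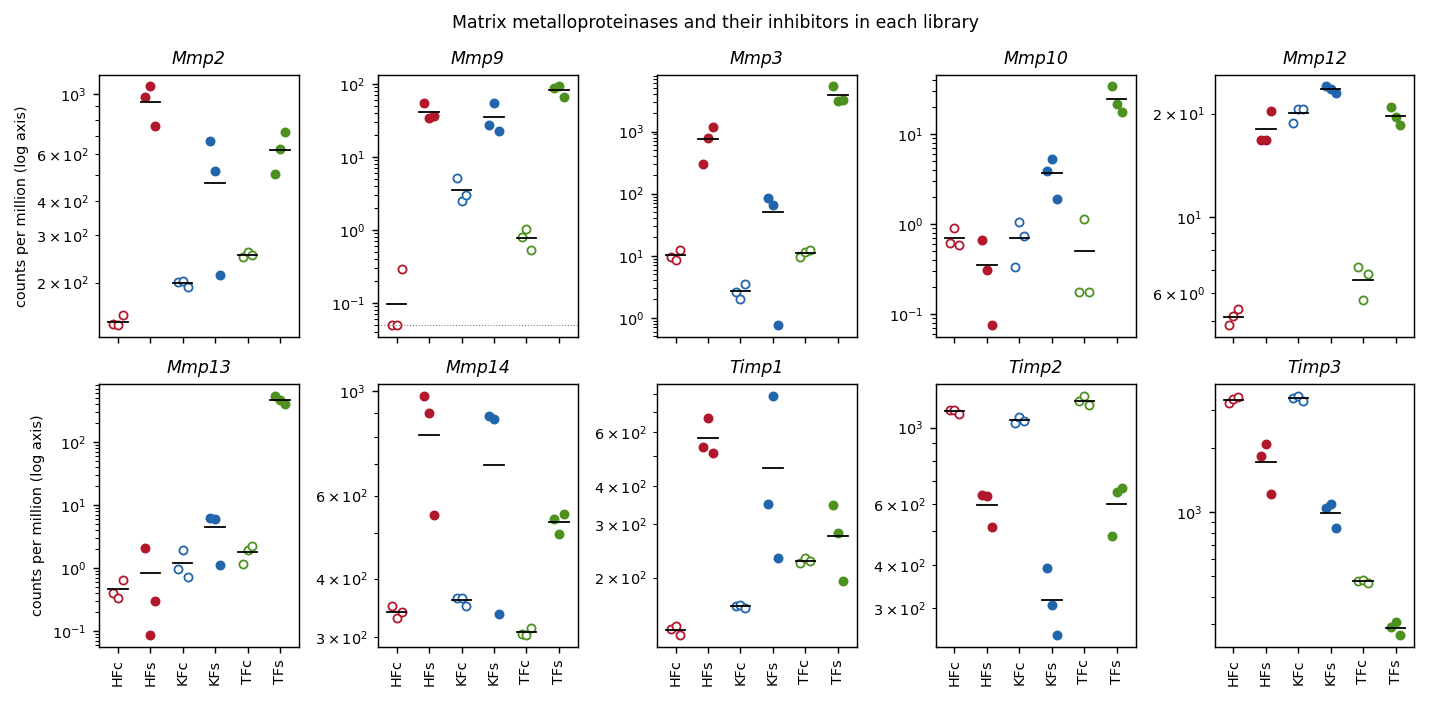
Levels of the 10 members in each of the 18 libraries, in CPM on a log axis whose range differs between panels; open circles are cultured and filled circles transplanted libraries, in red for heart, blue for kidney and green for tail, and the bar is the group mean. Values under 0.05 are drawn on the dotted line, as for Mmp9 in 2 HFc libraries with a count of 0, and Mmp13 reaches 392 to 533 CPM in TFs while it stays at 6.14 CPM or less in the other 15 libraries.

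Mmp2, a gelatinase made constitutively by fibroblasts (chromosome 8, 92827291 to 92853420), was one of the abundant members in every group. HFc libraries held 140, 139 and 151 CPM, and HFs libraries 980, 1068 and 765 CPM. In kidney fibroblasts it was at 201, 202 and 193 CPM in culture and at 669, 519 and 213 CPM after transplantation. TFc libraries read 249, 259 and 252 CPM and TFs libraries 505, 627 and 726 CPM. In no organ did the cultured and transplanted ranges overlap, although KFs replicate 3 lay just above KFc. The log2 fold change was 2.71 ± 0.29 in heart (adjusted p = 1.49e-06), 1.23 ± 0.27 in kidney (adjusted p = 0.0016; 1.54 without KFs replicate 3) and 1.29 ± 0.27 in tail (adjusted p = 0.00169). The kidney rise was 0.88, under the fold limit, when KFs replicate 1 was left out, and its adjusted p was 0.0516 in a fit of only KFs and KFc. By mean level HFs came first, TFs and KFs overlapped, KFs overlapped TFc, and TFc, KFc and HFc followed without overlap. HFs exceeded KFs by 1.01 ± 0.27 (adjusted p = 0.0103), and HFc was below TFc by -0.82 ± 0.27 (adjusted p = 0.0237), a call that was lost when any of the 3 HFc libraries or TFc replicate 2 was left out (adjusted p of 0.0503 to 0.0671).

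Mmp9, the gelatinase stored by neutrophils and induced in many activated cells (chromosome 2, 164940780 to 164955850), was nearly absent from cultured heart fibroblasts. Its counts in HFc were 0, 0 and 6, and its level in HFs was 53.8, 34.3 and 36.0 CPM. KFc libraries held 5.18, 2.51 and 2.99 CPM and KFs libraries 27.0, 54.0 and 22.8 CPM. TFc libraries held 0.801, 1.02 and 0.526 CPM and TFs libraries 86.4, 91.7 and 65.3 CPM. All transplanted libraries were above all cultured ones, and TFs lay above HFs and KFs, which overlapped each other. Its log2 fold change was 8.95 ± 0.65 in heart (adjusted p = 3.95e-08), 3.29 ± 0.41 in kidney (adjusted p = 1.02e-05; 3.47 without KFs replicate 3) and 6.67 ± 0.49 in tail (adjusted p = 1.33e-07). Since 6 counts in HFc replicate 3 set the cultured level in heart, that fold ranged from 8.28 to 13.04 when 1 library was left out. HFs minus TFs was -0.97 ± 0.36 (adjusted p = 0.0651), which was not called. Among cultures KFc exceeded TFc by 2.16 ± 0.48 (adjusted p = 0.00262) and HFc was below KFc by -5.41 ± 0.72 (adjusted p = 3.84e-05).

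Neutrophil and macrophage markers were set beside Mmp9, since these cells also make it. Of 8 neutrophil markers, Ly6g was at 0 in all 18 libraries, S100a8 stayed at 0.481 CPM or less and S100a9 at 1.31 CPM or less. The summed neutrophil list was 6 to 11.8 CPM in cultures and 16.4 to 23.9 CPM in grafts, most of it Cxcr2 and Csf3r. Only 3 of the 8 were tested, and 3, 2 and 1 of them were called higher in heart, kidney and tail. The summed level of 8 macrophage markers was 93.3 to 106 CPM in HFc and 94.7 to 164 CPM in HFs, 403 to 427 CPM in KFc and 38 to 158 CPM in KFs, and 174 to 203 CPM in TFc and 42.9 to 49.2 CPM in TFs. Of the 8 macrophage markers, 4 were called lower in kidney and 4 in tail, and 1 was called higher and none lower in heart. The macrophage sum in KFs without replicate 3 was 123 and 158 CPM, with the same count of 4 lower. The neutrophil markers tested in both fits, Camp, Csf3r and Cxcr2, were then called higher in kidney (3.17, 2.43 and 1.07), Camp only in this refit. Neutrophil markers that passed the filter on low counts only in this refit are not counted. The part of these cells in the level of Mmp9 was not tested.

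Mmp3, stromelysin 1 (chromosome 9, 7445822 to 7455975), had the highest mean level per kilobase of the 7 enzyme genes in TFs and HFs. TFc libraries held 9.67, 11.3 and 12.6 CPM and TFs libraries 5345, 3156 and 3232 CPM. In heart it was at 9.58, 8.60 and 12.6 CPM in culture and at 305, 788 and 1167 CPM after transplantation. KFc libraries held 2.61, 2.02 and 3.49 CPM, and KFs libraries 85.8, 66.3 and 0.762 CPM. The ranges of HFs, TFs and their cultures did not overlap, whereas KFs replicate 3, with 19 counts of Mmp3, fell below all 3 KFc libraries. On the log2 scale the change was 6.20 ± 1.00 in heart (adjusted p = 8.43e-05), 4.23 ± 0.95 in kidney (adjusted p = 0.00177) and 8.45 ± 1.10 in tail (adjusted p = 2.79e-05). Without KFs replicate 3 the kidney value was 4.76, and in a fit of only KFs and KFc its adjusted p was 0.0526.

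The order of Mmp3 levels was TFs, HFs and KFs without overlap, then TFc and HFc, which overlapped each other, and KFc last, and KFs spanned all 3 cultured groups through replicate 3. KFs were below TFs by -6.26 ± 0.99 (adjusted p = 0.000254) and HFs were above KFs by 3.89 ± 0.89 (adjusted p = 0.00357). HFs were below TFs by -2.38 ± 0.83 with an adjusted p of 0.0498, and leaving out any library of either group raised it to between 0.0667 and 0.17. Within the cluster Mmp3 and Mmp10 share 65 windows of 75 bases, the read length, or 3.76% of those in Mmp3 and 3.94% of those in Mmp10. How RSEM divided such reads, and how much of the lower Mmp10 count in TFs they make up, was not tested.

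Mmp10, stromelysin 2 (chromosome 9, 7502352 to 7510240), was scarce in all cultures and rose only in kidney and tail grafts by the limits used. TFc libraries held 0.178, 1.14 and 0.175 CPM and TFs libraries 33.6, 21.3 and 17.6 CPM. KFc libraries held 0.336, 1.05 and 0.731 CPM and KFs libraries 3.84, 5.22 and 1.88 CPM. HFc libraries held 0.619, 0.914 and 0.590 CPM, and HFs libraries 0.661, 0.309 and 0.0759 CPM, the last from 2 counts. Kidney and tail ranges did not overlap between grafts and cultures, and heart ranges did. The fitted log2 change was 2.36 ± 0.62 in kidney (adjusted p = 0.00555; 2.63 without KFs replicate 3), 5.61 ± 0.70 in tail (adjusted p = 1.81e-05) and -1.14 ± 0.77 in heart (adjusted p = 0.219). Among grafts the order was TFs, KFs and HFs with no overlap, and HFs lay below TFs by -6.21 ± 0.74 (adjusted p = 1.9e-05) and below KFs by -3.49 ± 0.71 (adjusted p = 0.00168). The 3 cultured groups overlapped one another and HFs.

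Mmp13, the interstitial collagenase (chromosome 9, 7272514 to 7283331), was high in tail grafts alone. TFs libraries held 533, 460 and 392 CPM, where TFc libraries held 1.16, 1.96 and 2.28 CPM. KFs libraries held 6.14, 5.96 and 1.12 CPM and KFc libraries 0.970, 1.95 and 0.731 CPM. In heart it was at 2.10, 0.0881 and 0.304 CPM after transplantation and at 0.401, 0.338 and 0.639 CPM in culture. TFs lay apart from every other group, while the remaining 5 groups overlapped their neighbours in order of mean level (KFs, TFc, KFc, HFs and HFc). The log2 fold change in tail was 8.03 ± 0.65 (adjusted p = 3.08e-07). In kidney it was 1.86 ± 0.61 (adjusted p = 0.0198; 2.27 without KFs replicate 3), with KFs replicate 3 inside the cultured range, and the call was lost without KFc replicate 1 or 3 or KFs replicate 1 or 2 (adjusted p of 0.0634 to 0.0823) and in a fit of only KFs and KFc (adjusted p = 0.0869). In heart the value of 0.69 ± 0.97 (adjusted p = 0.565) rested on HFs replicate 1, without which it was -1.05 (adjusted p = 0.46). TFs exceeded the other grafts, with HFs lower by -9.32 ± 0.72 (adjusted p = 2e-07) and KFs lower by -6.70 ± 0.60 (adjusted p = 1.4e-06).

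Mmp12, the metalloelastase (chromosome 9, 7344381 to 7369499), moved within a narrow range. HFc libraries held 4.85, 5.14 and 5.41 CPM and HFs libraries 16.8, 16.8 and 20.4 CPM. TFc libraries held 7.15, 5.73 and 6.84 CPM and TFs libraries 20.9, 19.5 and 18.6 CPM. Kidney cultures were already at 18.8, 20.7 and 20.7 CPM and kidney grafts at 24.0, 23.6 and 23.0 CPM. Grafts lay above cultures of the same organ in all 3 organs, and KFc overlapped TFs, which overlapped HFs. The log2 fold change was 1.81 ± 0.11 in heart (adjusted p = 6.89e-09), 1.58 ± 0.11 in tail (adjusted p = 6.81e-08) and 0.23 ± 0.10 in kidney (adjusted p = 0.0804; 0.20 without KFs replicate 3). Among cultures KFc exceeded TFc by 1.61 ± 0.11 (adjusted p = 3.25e-08), and HFc was below KFc by -1.97 ± 0.11 (adjusted p = 5.47e-09). KFc also had the highest summed macrophage markers of the cultures, given above, and their part in its Mmp12 level was not tested. In grafts Mmp12 stood at 16.8 CPM or more. The macrophage sum was lower in grafts than in cultures of kidney and tail, but in heart it was 94.7 to 164 CPM in HFs against 93.3 to 106 CPM in HFc. The part of macrophages in the grafted Mmp12 levels was not tested either. The 3′ end of Mmp12 overlaps Mmp1b on the other strand, whose counts summed to 141 over all libraries.

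Mmp14, the membrane-type enzyme that activates pro-Mmp2 (chromosome 14, 54431612 to 54445364), was evenly expressed in cultures and higher in grafts. HFc libraries held 350, 330 and 339 CPM and HFs libraries 976, 898 and 547 CPM. KFc libraries held 364, 364 and 350 CPM and KFs libraries 886, 872 and 337 CPM. TFc libraries held 305, 304 and 314 CPM and TFs libraries 534, 497 and 549 CPM. Grafts and cultures did not overlap in heart and tail, and in kidney KFs replicate 3 fell below KFc. Its log2 fold change was 1.25 ± 0.27 in heart (adjusted p = 0.000977), 0.96 ± 0.27 in kidney (adjusted p = 0.00753) and 0.77 ± 0.27 in tail (adjusted p = 0.0306), of which the last pair were under the fold limit. Without KFs replicate 3 the kidney value was 1.25 (adjusted p = 5.71e-06) and passed it. In the fit over all groups Mmp14 was called between no pair of organs in either state, with edgeR adjusted p-values from 0.109 to 0.857. It was called in all 3 pairs of cultures when only the groups compared were fitted, in HFs against TFs without HFs replicate 3 or KFs replicate 3, and in KFs against TFs without KFs replicate 3.

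**Figure D2:**
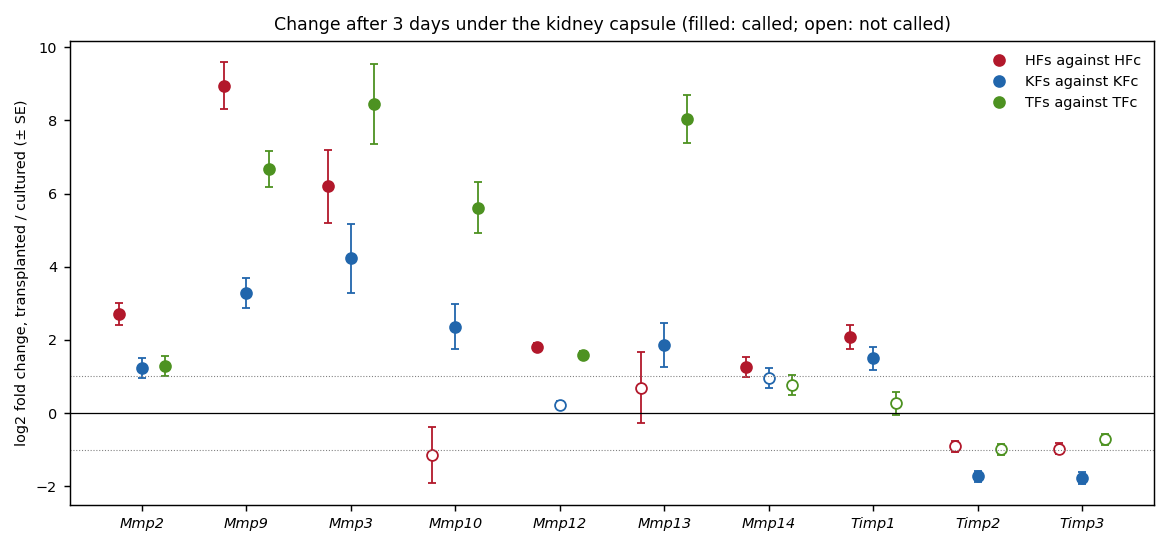
Log2 fold change of each member between transplanted and cultured fibroblasts, with its SE, for heart (red), kidney (blue) and tail (green); filled points passed the adjusted p of 0.05 and the fold limit of 1, drawn as dotted lines. Mmp3 lies between 4.23 and 8.45 and Mmp9 between 3.29 and 8.95 in all 3 organs, Mmp13 reaches 8.03 in tail, and Timp2 and Timp3 lie below 0 in all 3.

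Timp1, the inducible inhibitor (chromosome X, 20870166 to 20874735), went up with the enzymes in heart and kidney fibroblasts. HFc libraries held 136, 139 and 130 CPM and HFs libraries 538, 667 and 514 CPM. KFc libraries held 161, 163 and 159 CPM and KFs libraries 349, 788 and 232 CPM. TFc libraries held 224, 232 and 226 CPM and TFs libraries 345, 281 and 195 CPM. Heart and kidney grafts lay wholly above their cultures, and TFs replicate 3 fell below all TFc libraries. On the log2 scale the change was 2.08 ± 0.32 in heart (adjusted p = 5.23e-05), 1.50 ± 0.31 in kidney (adjusted p = 0.000984; 1.78 without KFs replicate 3) and 0.27 ± 0.31 in tail (adjusted p = 0.514). The kidney value was 0.80, under the fold limit, without KFs replicate 2, the highest library. HFs exceeded TFs by 1.07 ± 0.31 (adjusted p = 0.0205), a call that was lost without HFs replicate 2 or TFs replicate 2 or 3 (adjusted p of 0.0579 to 0.0913), and KFs overlapped both.

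Timp2, the inhibitor that joins Mmp14 in activating pro-Mmp2 (chromosome 11, 118301069 to 118355740, minus strand), went the other way. HFc libraries held 1127, 1123 and 1098 CPM and HFs libraries 636, 635 and 515 CPM. KFc libraries held 1032, 1075 and 1044 CPM and KFs libraries 393, 306 and 251 CPM. TFc libraries held 1195, 1234 and 1160 CPM and TFs libraries 484, 652 and 668 CPM. Every graft was below every culture, TFs and HFs overlapped, and KFs were lowest. The fitted log2 change was -0.91 ± 0.15 in heart (adjusted p = 9.37e-05), -1.73 ± 0.15 in kidney (adjusted p = 3.47e-07; -1.63 without KFs replicate 3) and -0.99 ± 0.15 in tail (adjusted p = 9.52e-05). The heart and tail values passed the adjusted p but not the fold limit, so kidney alone was called. The tail value was -1.01 to -1.08, past the limit, without TFc replicate 3, TFs replicate 2 or 3, or KFs replicate 3. KFs were lower than TFs by -0.92 ± 0.15 (adjusted p = 0.000272), and HFs were higher than KFs by 0.91 ± 0.15 (adjusted p = 0.000296).

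Timp3, the inhibitor that is held in the matrix (chromosome 10, 86300372 to 86349506), differed from tail in both heart and kidney fibroblasts, in culture and after transplantation. It was the only member called in all of these comparisons in the fit over all groups. In culture HFc libraries held 3227, 3365 and 3442 CPM, KFc libraries 3419, 3487 and 3292 CPM and TFc libraries 475, 480 and 466 CPM. After transplantation HFs libraries held 1833, 2072 and 1213 CPM, KFs libraries 1045, 1093 and 845 CPM and TFs libraries 289, 306 and 267 CPM. Tail fibroblasts were below heart and kidney fibroblasts in both states, grafts were below cultures in each organ, and only KFc and HFc overlapped. HFc exceeded TFc by 2.82 ± 0.16 (adjusted p = 2.62e-09) and KFc exceeded TFc by 2.84 ± 0.16 (adjusted p = 7.36e-09), while HFc and KFc differed by -0.02 ± 0.15 (adjusted p = 0.936). Among grafts, HFs exceeded TFs by 2.57 ± 0.16 (adjusted p = 2.67e-08) and KFs exceeded TFs by 1.79 ± 0.16 (adjusted p = 1.04e-06; 1.90 without KFs replicate 3). The log2 fold change with transplantation was -0.97 ± 0.15 in heart (adjusted p = 6.61e-05), -1.77 ± 0.16 in kidney (adjusted p = 3.73e-07; -1.71 without KFs replicate 3) and -0.72 ± 0.15 in tail (adjusted p = 0.00161), and kidney alone passed the fold limit. The heart value was -1.09, past it, without HFs replicate 2, and -1.03 with scaling by library size alone. Timp1 and Timp3 overlap Syn1 and Syn3 on the opposite strand, and the counting was strand-specific. Timp2 overlaps Cep295nl on the same strand, though no window of 75 bases in its transcripts was found in those of another gene.

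Summed per kilobase of exon, the enzymes gained on their inhibitors in each organ. The 7 metalloproteinase genes summed to 103 to 137 CPM per kb in the 9 cultured libraries, to 643 to 980 in HFs, 131 to 410 in KFs and 2235 to 3453 in TFs. The 3 inhibitor genes summed to 609 to 888 CPM per kb in cultures, 860 to 1169 in HFs, 430 to 1100 in KFs and 423 to 548 in TFs. The ratio of the enzyme sum to the inhibitor sum was thus 0.12 to 0.129 in HFc, 0.143 to 0.146 in KFc and 0.214 to 0.224 in TFc. It was 0.647 to 1.14 in HFs, 0.306 to 0.66 in KFs and 4.28 to 6.3 in TFs, so that all 9 grafts lay above all 9 cultures and TFs above all other grafts. Without KFs replicate 3 the KFs ratios were 0.328 and 0.66. RNA ratios of this kind do not measure enzyme activity.

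The leading enzyme by level per kilobase also changed. Mmp14 made up 48.0% to 55.0% of the enzyme sum in HFc and KFc, and Mmp2 54.7% to 56.3% of it in TFc. In TFs Mmp3 took 78.4% to 85.9%, in KFs Mmp2 led with 42.7% to 48.4%, and in HFs Mmp2 led in replicate 1 (45.2%) and Mmp3 in replicates 2 and 3 (47.7% and 66.1%). Timp1 made up 17.3% to 21% of the inhibitor sum in HFc and KFc, 40.9% to 41.8% in TFc, and 51.8% to 80.7% in grafts.

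**Figure D3:**
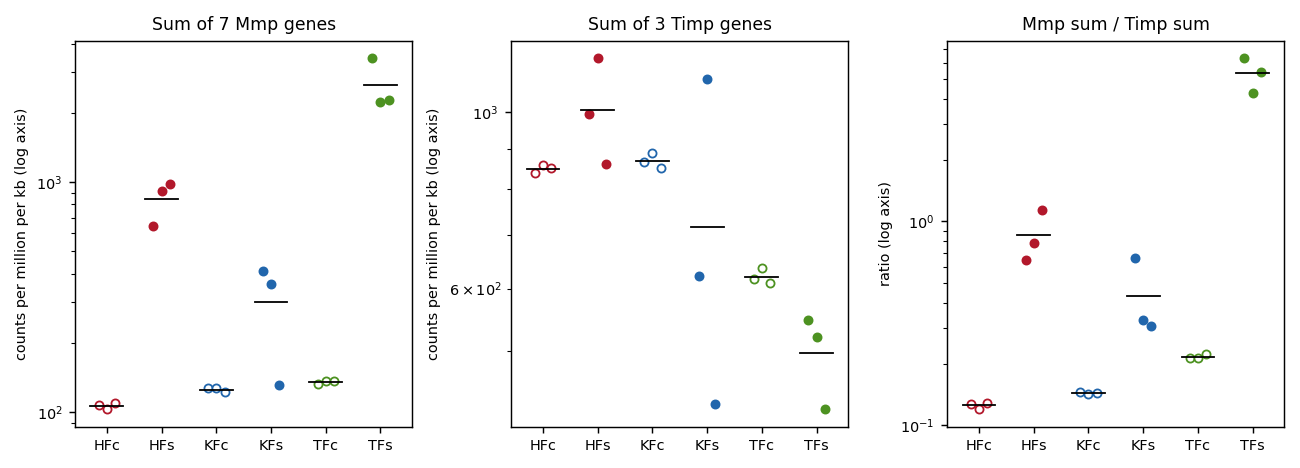
Sums of the 7 metalloproteinase genes and of the 3 inhibitor genes in CPM per kb of exon, and their ratio, for each library on log axes; open circles are cultured and filled circles transplanted libraries, and bars are group means. The ratio is 0.12 to 0.224 in cultures, 0.306 to 1.14 in HFs and KFs and 4.28 to 6.3 in TFs.

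Between organs, 20% to 40% of the members were called among cultures and 50% to 70% among grafts in the fit over all groups. This order did not hold in fits of only the groups compared, given below. HFc and TFc differed in 4 of 10 members (Mmp2, Mmp9, Mmp12 and Timp3), where 41.9% of all genes were called. KFc and TFc differed in 3 (Mmp9, Mmp12 and Timp3) against 36.4%, and HFc and KFc in 2 (Mmp9 and Mmp12) against 29.2%. HFs and TFs differed in 5 (Mmp3, Mmp10, Mmp13, Timp1 and Timp3) against 23.1%, KFs and TFs in 6 (Mmp9, Mmp3, Mmp10, Mmp13, Timp2 and Timp3) against 29.1%, and HFs and KFs in 7 (Mmp2, Mmp3, Mmp10, Mmp12, Mmp13, Timp2 and Timp3) against 33.2%. Without KFs replicate 3 the calls named for KFs against TFs and HFs against KFs all held. Against TFs the differences were then -1 for Mmp9 (-1.23 with all libraries), -5.68 for Mmp3, -2.40 for Mmp10, -6.25 for Mmp13, -0.78 for Timp2 and 1.90 for Timp3. HFs minus KFs was then 0.67 for Mmp2, 3.32 for Mmp3, -3.81 for Mmp10, -0.39 for Mmp12, -3.08 for Mmp13, 0.78 for Timp2 and 0.69 for Timp3. The counts for HFs against TFs and for HFc against KFc were 8 and 4 without this library, where 5244 and 6136 of 16923 genes were called. In fits of only the groups compared, HFc against TFc, KFc against TFc and HFc against KFc had 7, 8 and 8 members called, with 9158, 8675 and 7508 of all genes. HFs against TFs, KFs against TFs and HFs against KFs then had 7, 3 and 0, with 3792, 1137 and 883 of all genes. None of the 7 was thus called in HFs against KFs, and Mmp9, Mmp3 and Timp2 were lost in KFs against TFs (adjusted p of 0.0784, 0.0583 and 0.0622). Mmp9 in KFs against TFs was also lost without KFs replicate 1 or TFs replicate 2 (adjusted p of 0.0518 and 0.0694). In HFs against KFs, Mmp12 was lost without HFs replicate 1 or 2 (adjusted p of 0.0627 and 0.0685) and Mmp13 without HFs replicate 2 or 3 (adjusted p of 0.0519 and 0.0569). These counts share libraries across comparisons, and the difference between the cultured and the grafted counts was not tested. In the fit over all groups the members' shares in cultures lay near those of all genes.

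Whether the change itself differed between organs was tested in the same fit. The heart and tail changes differed in 4 members, where 22.8% of all genes did. Mmp2 and Timp1 rose more in heart, by 1.42 ± 0.38 and 1.82 ± 0.44, and Mmp10 and Mmp13 more in tail, with differences of -6.76 ± 1.01 and -7.34 ± 1.32. The kidney and tail changes differed in 7 members against 11.1% of all genes, all 7 lower in kidney: Mmp9, Mmp3, Mmp10, Mmp12, Mmp13, Timp2 and Timp3. Of these, Mmp3, Mmp10 and Timp2 lost the call when single libraries were left out, with an adjusted p of up to 0.0934, 0.0954 and 0.0866. The heart and kidney changes differed in 6 against 26.2% of all genes, with Mmp2, Mmp9, Mmp12, Timp2 and Timp3 higher in heart and Mmp10 lower. For Mmp9, HFs and KFs overlapped after transplantation while KFc lay above HFc before it.

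**Figure D4:**
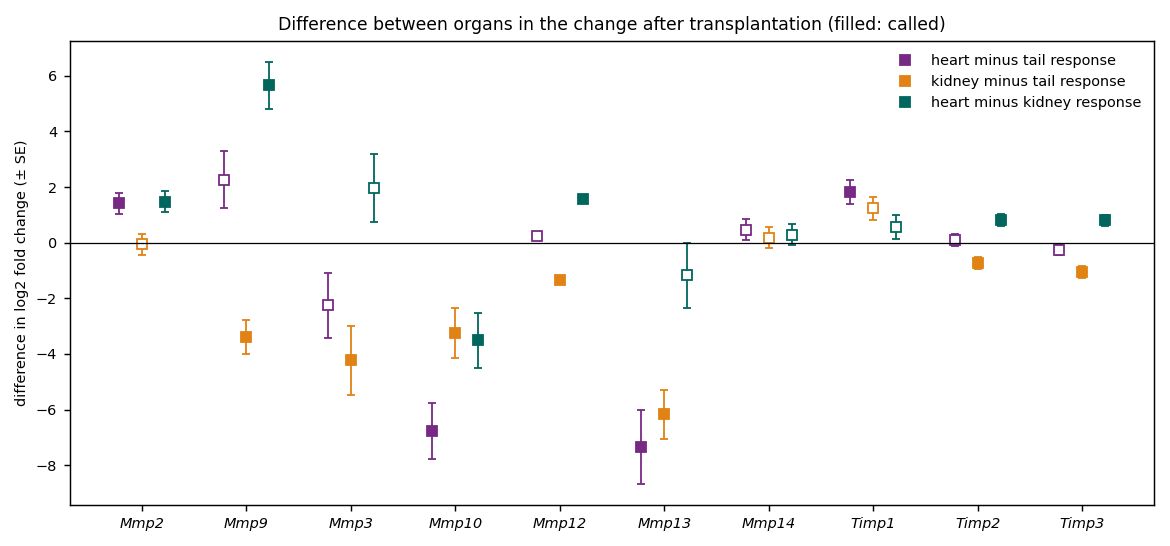
Difference between organs in the log2 fold change after transplantation, with its SE, for each member: heart minus tail, kidney minus tail and heart minus kidney; filled points have an adjusted p under 0.05. Mmp13 lies at -7.34 and -6.17 against tail, Mmp9 at 5.66 for heart minus kidney, and Mmp14 between 0.18 and 0.47 with no call.

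Markers of renal tubule moved with transplantation as well. Of 8 proximal tubule markers, 4 to 6 were at 3 counts or fewer in each cultured library and none was in any graft, and 8, 7 and 8 of them were called higher in heart, kidney and tail. Their summed level was 70.2 to 1091 CPM in HFs, 50.9 to 109 CPM in KFs and 103 to 290 CPM in TFs, against 19.9 to 20.2 CPM in HFc, 95.6 to 102 CPM in KFc and 14 to 16.4 CPM in TFc. In kidney the cultured sums lay within the range of the grafts, and Lrp2, which made up most of the sum in KFc, was at 92 to 99.2 CPM in KFc and 22.7 to 55.2 CPM in KFs. The KFs sums without replicate 3 were 109 and 50.9 CPM, and 6 tubule markers were then called higher. The 6 endothelial markers summed to 35 to 43 CPM in cultures and 25 to 67 CPM in grafts, with 5, 3 and 2 called higher and 1 lower, in kidney (3 and none without KFs replicate 3), and the 5 keratinocyte markers summed to 2.59 CPM or less in every library. The part of these cells in the members' changes was not tested.

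Other genes of the same families were followed from 4 lists. Of all genes, 18.3% were called higher and 9.33% lower in heart, 14.7% and 7.99% in kidney, and 11% and 5.53% in tail. The kidney shares were 12.9% and 10.3% without KFs replicate 3. Whether the counts of the lists differ from these shares was not tested. Of 17 other Mmp and Timp genes, 12 were tested; 3 rose and 1 fell in heart, 2 rose and 2 fell in kidney, and 4 rose and 2 fell in tail. The kidney counts were 4 and 3 without KFs replicate 3. The largest rises in heart were Mmp8, the neutrophil collagenase, from 0.514 ± 0.172 to 10.1 ± 5.35 CPM (mean ± SD, n = 3; log2 fold change 4.28), and Mmp23 (2.14), and the fall was Mmp16, a membrane-type enzyme (-1.45). In kidney, Mmp27 (2.37) and Mmp25 (2.10) rose from a mean of 0.105 CPM or less, and Mmp28 (-2.80) and Mmp17 (-1.98) fell, and without KFs replicate 3 the 4 values were 2.76, 2.37, -2.76 and -1.80. In tail, Mmp27 and Mmp1b were at 3 counts or fewer in each TFc library and reached 0.297 ± 0.0242 and 1.35 ± 0.602 CPM, at least 2.63-fold and 12-fold above the mean level that 3 counts give per TFc library, and Mmp15 (-1.65) and Mmp28 (-1.51) fell.

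Among 17 tested activators and other regulators, 7 rose and 2 fell in heart, 6 and 3 in kidney (7 and 2 without KFs replicate 3) and 4 and 3 in tail. A2m, a broad protease inhibitor of plasma, was at 3 counts or fewer in HFc and KFc libraries and reached 31.2 ± 27.4 CPM in HFs and 6.28 ± 5.35 CPM in KFs, at least 261-fold and 59.6-fold above that floor (77.3-fold in KFs without replicate 3). Lcn2, whose product binds Mmp9, reached 246 ± 128 CPM in HFs from 0.579 ± 0.235 (log2 fold change 8.69), 20.2 ± 27.1 CPM in KFs, at least 192-fold above the floor but 43.2-fold without replicate 3, which held 51.5 CPM against 4.49 and 4.62, and 185 ± 50.5 CPM in TFs from 2.12 ± 0.599 (6.46). Tfpi2, an inhibitor of plasmin, rose by 3.26 in tail. Prss23, a serine protease, fell by 3.27 on the log2 scale in heart and by 3.38 in kidney (3.25 without KFs replicate 3). Reck, a membrane-bound inhibitor of metalloproteinases, fell by 1.43 in kidney (1.16 without it), and Plaur, the urokinase receptor, fell by 1.18 in tail.

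All 22 listed Adam and Adamts genes were tested, with 9 higher and 4 lower in heart, 8 higher and 4 lower in kidney (9 and 5 without KFs replicate 3) and 9 higher and none lower in tail. Adamts15 and Adamts16 had the largest rises in each organ. Adamts15, an aggrecan-cutting enzyme, went to 22.8 ± 8.67 CPM in HFs, at least 191-fold above the floor, to 38.5 ± 38.7 CPM in KFs (log2 fold change 5.49, and 5.82 without KFs replicate 3) and to 30.5 ± 8.20 CPM in TFs (5.86). Adamts16 reached 2.74 ± 2.47 CPM in HFs, at least 23.0-fold above the floor, 6.51 ± 1.65 CPM in KFs (5.73, and 5.51 without it) and 13.4 ± 2.66 CPM in TFs (6.27). The largest falls were Adam9 (-1.50) and Adamts1 (-1.39) in heart and Adam8 (-2.88) and Adamts5 (-2.01) in kidney, the last pair at -2.82 and -2.33 without KFs replicate 3.

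The 12 listed matrix substrates had 4, 6 and 6 genes higher in heart, kidney and tail and none lower, and the kidney count was the same without KFs replicate 3. Col3a1, the collagen III chain, rose by 3.00, 2.80 (3.24 without KFs replicate 3) and 3.03 on the log2 scale and led in heart and tail, Col1a2 rose by 2.76 in heart, and Col4a1, of basement membrane, by 1.46 in tail. Acan in kidney went from 0 counts in KFc to 0.529 ± 0.536 CPM in KFs, with 1 KFs library at 3 counts or fewer, at least 5.02-fold above the floor, and 2.21-fold without KFs replicate 3, the highest library.

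The genes whose levels followed each member most closely over the 18 libraries are given as a description, since the libraries share groups, and KFs replicate 3 is among them. Mmp13 followed Psme1 (Pearson's r of log2 CPM 0.928), Stx4a (0.923) and Ccl2 (0.902), and Mmp10 followed Mmp13 (0.894), Ogfr (0.848) and Psme2 (0.843). Mmp14 and Timp1 had collagen I chains among their nearest 3, with Col1a2 at 0.964, Ctsh at 0.959 and Col1a1 at 0.957 for Mmp14, and Sdc1 at 0.967, Col1a1 at 0.921 and Col1a2 at 0.892 for Timp1. Mmp3 followed Steap3 (0.962), Pdgfra (0.957) and Cxcl12 (0.956), and Mmp9 followed Egr1 (0.955), Chst15 (0.954) and Adamts15 (0.952). Mmp2 followed Atp1b2 and Acaa2 (both 0.957) and Ccl8 (0.954), and Mmp12 followed Egfr (0.975), Slfn2 (0.97) and S1pr3 (0.966). Timp2 followed Prss12 (0.975), Tmem50a (0.971) and Lynx1 (0.969), and Timp3 followed Fzd4 (0.971), Megf10 (0.97) and Zswim6 (0.968). Within the set, Mmp2 and Mmp14, which act in one pathway, correlated at 0.866, Mmp9 and Mmp12 at 0.87, Mmp2 and Timp2 at -0.549, and Mmp13 and Timp3 at -0.74.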

How the data were processed

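Total RNA of 18 fibroblast samples was made into stranded libraries and read as single 75-base ends. Per the paper's methods, the authors filtered reads on quality and aligned them to GRCm38 with RSEM and Bowtie2, with strand-specific counting. The submitters' processing notes list Bowtie, RSEM and mm9 instead, so the build is uncertain, and the annotation release is not given in the sources used here. The deposited values are RSEM expected counts per Ensembl gene and were whole numbers in all columns.

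Symbols and coordinates came from GENCODE M21 on GRCm38, which matched 37607 of 38924 identifiers. The other 1317 held 0.277% of the counts and stayed in the fit under their identifiers. Promoters came from RefSeq (GRCm38.p6). Genes were filtered with filterByExpr, scaled by TMM and tested with edgeR 4.0.16 in R 4.3.3, with 1 model of 6 groups and 12 contrasts, Benjamini-Hochberg adjustment over 16577 genes and SE taken from the fold change and its F statistic. The procedure was tested on simulated data. CPM divides counts by the TMM-scaled library size, and 3 counts, the floor used for a lower bound, correspond to 0.102 to 0.18 CPM in heart libraries. Counting error alone is covered by such floors. The study calls its 3 replicates a condition biological. The labels do not say whether they come from separate animals, so p-values measure the spread between these samples.

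The members and lists were chosen with earlier results of these data known. All 10 members are named. From each of the 4 lists of related genes, the text names the 2 largest rises and 2 largest falls among called genes per transplant comparison, except 1 listed gene that is not reported here, and for each member the 3 tested genes with the highest correlation. Alternatives were DESeq2 1.42.0, other scalings, filters and thresholds, a replicate block, fits of the compared groups alone and leaving out each library. Leaving KFs replicate 3 out of comparisons it does not enter, and out of the lists and markers, was chosen after seeing the data. Same-numbered libraries of different groups correlated in their deviations from the group means at -0.139 to 0.0792, so the numbers were not taken to pair samples.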

Additional observations from a re-analysis of the deposited data

Results flagged for a closer look

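The change after transplantation differed between organs in 17 tests of members, each an interaction term of the edgeR fit at an adjusted p under 0.05 (n = 3 libraries a group). Positive values mean a higher change in the organ named first.

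Heart minus tail, the difference in log2 fold change was 1.82 for Timp1, 1.42 for Mmp2, -6.76 for Mmp10 and -7.34 for Mmp13. Kidney minus tail it was -0.74 for Timp2, -3.39 for Mmp9, -1.05 for Timp3, -4.22 for Mmp3, -3.25 for Mmp10, -1.35 for Mmp12 and -6.17 for Mmp13. Heart minus kidney it was 0.82 for Timp2, 5.66 for Mmp9, 0.80 for Timp3, 1.48 for Mmp2, -3.51 for Mmp10 and 1.58 for Mmp12.

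Without KFs replicate 3, the library whose Xist and Y-linked levels go against a male donor, the kidney values kept their sign and stayed past the threshold. Kidney minus tail was then -3.18 for Mmp9, -3.67 for Mmp3, -2.97 for Mmp10, -1.36 for Mmp12, -5.76 for Mmp13, -0.62 for Timp2 and -0.97 for Timp3. Heart minus kidney was then 1.19 for Mmp2, 5.50 for Mmp9, -3.78 for Mmp10, 1.63 for Mmp12, 0.74 for Timp2 and 0.76 for Timp3. When other single libraries were left out, 3 of the kidney minus tail calls were lost. Mmp3 lost it without any KFc, TFc or TFs library or KFs replicate 2 (adjusted p of 0.0504 to 0.0934). Timp2 lost it without any KFc or TFc library, KFs replicate 2 or TFs replicate 2 or 3 (adjusted p of 0.0507 to 0.0866), and Mmp10 without KFc replicate 2 or 3, TFc replicate 1 or 3 or TFs replicate 1 or 2 (adjusted p of 0.0537 to 0.0954). In a fit of only the groups compared Mmp3 and Timp2 were not called (adjusted p of 0.0847 and 0.0633). The heart values of Mmp9 rest on HFc libraries with 0, 0 and 6 counts.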

How the results depend on the processing

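Directions and calls of single members were recomputed for all transplant comparisons. Between organs, only tests called in the main fit were followed in this way. Alternatives that change only a threshold were left out. A gained call could thus be counted only in the transplant comparisons, and gains between organs show in the counts of members below. Of these values, 1021 kept their direction and their side of the threshold, 73 lost the call, 7 gained it and 1 turned in direction: Mmp13 in HFs against HFc, not called, was -1.05 without HFs replicate 1 (range -1.05 to 1.31 over left-out libraries). Of the counts of called members, 182 stayed within 1.5 times, 18 were lower than that and 5 were higher.

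In a fit of only the groups compared the count was 5 for KFs against KFc, 7 for HFc against TFc, 8 for KFc against TFc, 8 for HFc against KFc and 3 for KFs against TFs. In this order 2827, 9158, 8675, 7508 and 1137 of all genes were called. In HFs against KFs the member count was 0 in such a fit by edgeR, which called 883 of 15350 genes. There 6 members were at an unadjusted p under 0.05, where edgeR and DESeq2 over all groups both gave 7. At an adjusted p under 0.01 the count was 2 for HFc against TFc, 3 for HFs against TFs, 4 for the kidney against tail response and 3 for heart against kidney. The genes called were then 4955, 2236, 767 and 2386 of 16577. With a log2 fold limit of 1 the member count was 2 for HFc against TFc and 4 for HFs against KFs, with 3237 and 2096 genes called. Leaving out 1 library gave 2 to 6 members for HFc against TFc, 2 to 4 for HFc against KFc, 3 to 8 for HFs against TFs and 4 to 8 for the kidney against tail response. The genes called in these refits ranged from 5838 to 8227, 3703 to 6136, 2743 to 5244 and 1198 to 3619.

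With the replicate block, the counts were 6, 8 and 6 for the transplant comparisons in heart, kidney and tail, with 4504, 3601 and 2626 of all genes called. Mmp3 lost its call in HFs against TFs (-2.35, adjusted p = 0.083) and in the kidney against tail response (-4.23, adjusted p = 0.0639). Scaling by library size alone moved the median of all genes to -0.25 in HFs against TFs and HFs against KFs, from -0.03 and -0.04. The causes of these changes were not tested. Few counts lie behind some folds: Mmp10 and Mmp13 had 20 and 45 over the 3 HFs libraries and Mmp9 had 6 over the HFc libraries.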
